A study of Mus musculus with 10 samples.

Results

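The genes described here carry bicarbonate, chloride and protons across colonocytes, the absorptive cells of the large intestine. They were picked by name from a table of gene levels, and are Slc26a3, Slc9a3, Car1, Car2, Car4, Atp12a and Cftr, 7 of the 55487 genes in the table. All 7 were found, each in a single row, and all 7 were among the 12870 genes tested, those with a mean of at least 1 TPM, a transcript level scaled to gene length and to the total of its library. RNA was sequenced from intestinal epithelial cells (IECs) of the colon of C57BL/6J mice. The WT group was wild type, and the RhoB-/- group was homozygous for a RhoB knockout that is not described as limited to the epithelium. Each group had 5 libraries, numbered by replicate. The sources used here do not state that each library is a separate mouse, so p-values measure the spread between these libraries. The labels state neither an age nor a treatment, and the study's methods give young adult mice as a general rule. The WT mice were bought from a supplier and the RhoB-/- mice were made at another centre, so that genotype and source cannot be told apart. IECs were shaken off pieces of colon after steps in EDTA, the first with dithiothreitol, and no cell type was sorted. In such bulk RNA, fewer cells of a type and less RNA per cell cannot be told apart.

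Colonocytes take up salt through exchangers of the apical membrane that work as a pair. Slc26a3 moves chloride in and bicarbonate out, while Slc9a3 moves sodium in and protons out. Carbonic anhydrases supply both ions by hydrating carbon dioxide, Car1 and Car2 in the cytosol and Car4 on the outer face of the apical membrane. Atp12a is the catalytic subunit of the colonic proton and potassium pump, and Cftr is the chloride and bicarbonate channel through which crypt cells secrete fluid.

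Rhob, the deleted gene, was read first as a check of the labels. Its level was 170.5, 303, 365, 333 and 389 TPM in WT replicates 1 to 5, and 0.09, 0.1, 0.35, 0.57 and 111 TPM in RhoB-/- replicates 1 to 5. The library labelled RhoB-/- replicate 5 thus held Rhob at a level far above the other 4 of its group and below all 5 WT libraries. These values do not settle whether that library is wholly RhoB-/-. It is kept under its label, and the difference of each of the 7 genes is given with and without it.

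**Figure D1:**
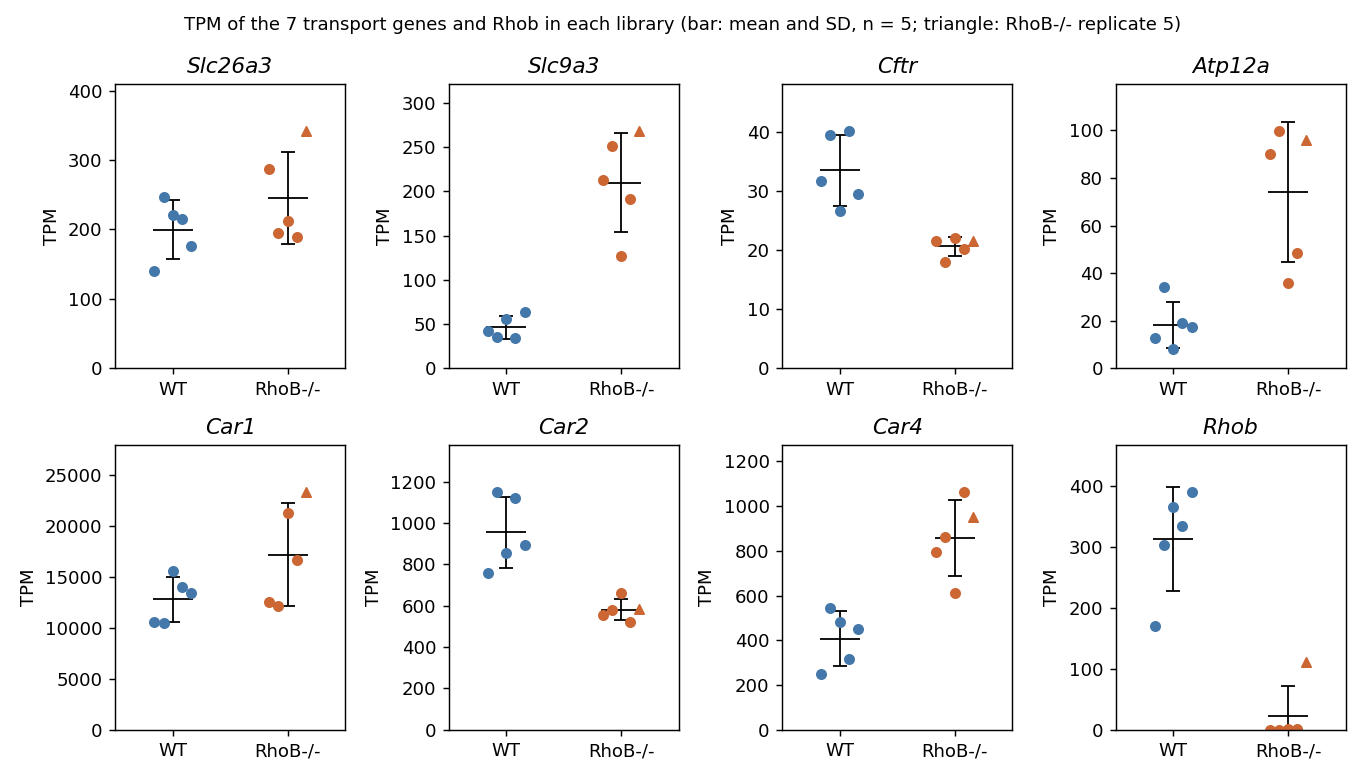
TPM of the 7 transport genes and of Rhob (vertical axes, each from 0) in the 5 WT and 5 RhoB-/- libraries, 1 point per library, with the mean and SD as bars and the library labelled RhoB-/- replicate 5 as a triangle. Slc9a3, Atp12a and Car4 lay higher in every RhoB-/- library than in any WT library, Car2 and Cftr lay lower, and Slc26a3 and Car1 overlapped.

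Levels of 3 of the 7 genes were higher in RhoB-/- IECs (Slc9a3, Atp12a and Car4) and 2 were lower (Car2 and Cftr), at an adjusted p below 0.05 in a limma fit over all 12870 tested genes. Slc26a3 and Car1 did not pass. In the same fit 21.2% of all tested genes passed, 7.73% as higher (995 genes) and 13.5% as lower (1734 genes). The lower count was 950 without WT replicate 2, 853 without WT replicate 4, 985 without RhoB-/- replicate 1, 2868 without RhoB-/- replicate 3 and 1116 without the library labelled RhoB-/- replicate 5. The same 5 genes did not overlap between the groups, against 14.5% of all tested genes. The same 5 also passed the thresholds the study states, a p below 0.05 with a fold change above 1.5, against 14.7%. That p was taken here as unadjusted, which the study does not specify. The 7 genes were chosen with earlier results known, so no test was made over them as a list. The median difference of all tested genes was -0.13 on the log2(TPM + 1) scale, and each difference is given below with its value relative to that median. Scaling moved the balance of all calls, to 2010 higher and 1645 lower after each library was recentred on its median and to 1101 higher and 3729 lower without the mitochondrial genes, while the calls of the 7 genes were the same under both.

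Slc9a3, the sodium and proton exchanger, had 42.5, 35.0, 55.3, 34.6 and 63.9 TPM in WT replicates 1 to 5. It had 213, 251, 126.5, 191 and 268 TPM in RhoB-/- replicates 1 to 5. The lowest RhoB-/- library, replicate 3, was still above the highest WT library, replicate 5. WT libraries averaged 46.3 ± 12.9 TPM (SD, n = 5) and RhoB-/- libraries averaged 209.9 ± 55.7 TPM (SD, n = 5), a 4.54-fold ratio of means. On the log2 scale the difference was 2.15 (SE 0.22, adjusted p = 6.51e-05), or 2.28 relative to the median gene, with all 5 RhoB-/- libraries above the WT median. Without the library labelled RhoB-/- replicate 5 it was 2.05 (adjusted p = 0.000262).

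Slc26a3, its partner in salt uptake, had 139.7, 247, 221, 215 and 176 TPM in WT replicates 1 to 5. It had 287, 196, 213, 189 and 342 TPM in RhoB-/- replicates 1 to 5. Replicates 1 and 5 of RhoB-/- lay above every WT library, and the other 3 lay within the WT range. WT libraries averaged 199.8 ± 42.0 TPM (SD, n = 5) and RhoB-/- libraries averaged 245 ± 66.6 TPM (SD, n = 5). The log2 difference of 0.28 (SE 0.20, adjusted p = 0.324) was within the spread between libraries, with a 95% interval from -0.15 to 0.71, and was 0.41 relative to the median gene. Without the library labelled RhoB-/- replicate 5 it was 0.15 (adjusted p = 0.59).

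The RefSeq promoter windows of both exchangers and of Car4 are shown because Slc9a3 and Car4 rose together while Slc26a3, the partner of Slc9a3, did not pass. Each line gives the 250 bases before the RefSeq start on GRCm38.p6, plus strand, from 5′ to 3′, at chr13:74121163-74121412 for Slc9a3, chr11:84957504-84957753 for Car4 and chr12:31437969-31438218 for Slc26a3. Capitals mark GTTAAT, part of the site of the HNF1 factors.
Slc9a3: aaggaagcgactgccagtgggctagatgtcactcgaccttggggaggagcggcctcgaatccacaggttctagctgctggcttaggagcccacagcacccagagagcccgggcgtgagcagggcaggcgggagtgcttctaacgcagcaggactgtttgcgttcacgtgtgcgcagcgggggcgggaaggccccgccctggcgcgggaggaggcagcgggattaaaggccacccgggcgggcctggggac
Car4: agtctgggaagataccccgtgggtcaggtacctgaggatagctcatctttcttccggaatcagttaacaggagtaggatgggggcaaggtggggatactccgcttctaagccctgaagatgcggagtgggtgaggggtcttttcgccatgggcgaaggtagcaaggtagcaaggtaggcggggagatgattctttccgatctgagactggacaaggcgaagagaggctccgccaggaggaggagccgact
Slc26a3: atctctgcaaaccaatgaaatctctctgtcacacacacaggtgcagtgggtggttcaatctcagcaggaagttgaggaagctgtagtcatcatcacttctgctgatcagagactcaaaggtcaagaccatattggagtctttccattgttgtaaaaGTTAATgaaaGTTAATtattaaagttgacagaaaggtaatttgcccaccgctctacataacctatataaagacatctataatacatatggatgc
Of the 7 genes, 4 had such a window, the fourth being Cftr. The window of Slc26a3 lies well inside its GENCODE gene, so the annotations differ on its start, while the windows of the other 3 lie at the GENCODE start. The windows of 300 bases, which run on past the start, were searched on both strands for TTTATG (Cdx), GTTAAT (HNF1, partial site) and CAAAGTC (HNF4). GTTAAT occurred 2 times in Slc26a3, from positions -94 and -84 before the start, and none of the 3 motifs occurred in the windows of Slc9a3, Car4 or Cftr. Of all 32851 windows, 11.9% held TTTATG, 7.1% held GTTAAT and 4.44% held CAAAGTC. GC content was 39.3% in Slc26a3, 57.3% in Car4, 68.7% in Slc9a3 and 71.3% in Cftr, beside a median of 52.7% over all windows. A match is a run of letters, and binding was not measured.

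Car4, the membrane carbonic anhydrase, had 248, 544, 482, 314 and 448 TPM in WT replicates 1 to 5. It had 797, 863, 611, 1061 and 952 TPM in RhoB-/- replicates 1 to 5. All 5 RhoB-/- libraries were above all 5 WT libraries. WT libraries averaged 407 ± 122 TPM (SD, n = 5) and RhoB-/- libraries averaged 857 ± 169 TPM (SD, n = 5), a ratio of 2.1. The log2 difference was 1.10 (SE 0.22, adjusted p = 0.00549), or 1.23 relative to the median gene, and without the library labelled RhoB-/- replicate 5 it was 1.06 (adjusted p = 0.0167).

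Car2, a cytosolic carbonic anhydrase, went the other way. Its levels were 757, 1148, 857, 1123 and 896 TPM in WT replicates 1 to 5, and 553, 579, 659, 523 and 585 TPM in RhoB-/- replicates 1 to 5. The groups did not overlap, and the RhoB-/- libraries lay closer together (580.1 ± 50.6 TPM, SD, n = 5) than the WT libraries (956 ± 172 TPM, SD, n = 5). Car2 fell by 0.71 on the log2 scale (SE 0.14, adjusted p = 0.00452), a difference of -0.58 relative to the median gene, with all 5 RhoB-/- libraries below the WT median. Without the library labelled RhoB-/- replicate 5 the difference was -0.71 (adjusted p = 0.0121).

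Car1, the other cytosolic enzyme, was among the most abundant transcripts of these cells. It had 10504, 10411, 15530.3, 13989 and 13343 TPM in WT replicates 1 to 5. It had 12494, 12131, 21258, 16634 and 23239 TPM in RhoB-/- replicates 1 to 5. Replicates 3, 4 and 5 of RhoB-/- were above every WT library and replicates 1 and 2 were within their range. The log2 difference was 0.39 (SE 0.21, adjusted p = 0.203) with a 95% interval from -0.07 to 0.86, or 0.52 relative to the median gene. It was 0.27 (adjusted p = 0.398) without the library labelled RhoB-/- replicate 5.

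TPM is per length, so the enzymes can be set beside each other within a library. Of the summed TPM of the 16 carbonic anhydrase genes, Car1 held 89.4% ± 2.43 in WT libraries and 91.1% ± 2.24 in RhoB-/- libraries (SD, n = 5 each). Car2 held 6.84% ± 1.63 in WT libraries and 3.26% ± 0.801 in RhoB-/- libraries (SD, n = 5 each), and its highest RhoB-/- share, 4.23%, was below its lowest WT share, 5.04%. Car4 held 2.89% ± 0.973 in WT libraries and 4.86% ± 1.54 in RhoB-/- libraries (SD, n = 5 each), and its shares overlapped. Without the library labelled RhoB-/- replicate 5 the mean RhoB-/- shares were 90.6% for Car1, 3.49% for Car2 and 5.13% for Car4. The sum of all 16 ranged from 11632 to 16980 TPM in WT and from 13676 to 24938 TPM in RhoB-/-. These shares are described with no test.

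Atp12a, the proton pump, had 12.5, 34.0, 8.01, 18.8 and 17.4 TPM in WT replicates 1 to 5. It had 90.15, 99.7, 35.9, 48.6 and 95.9 TPM in RhoB-/- replicates 1 to 5. The groups did not overlap, though RhoB-/- replicate 3 was just above WT replicate 2, and the spread was wide (18.2 ± 9.83 TPM in WT and 74.1 ± 29.6 TPM in RhoB-/-, SD, n = 5 each). The log2 difference was 2.01 (SE 0.37, adjusted p = 0.00328), or 2.13 relative to the median gene. Without the library labelled RhoB-/- replicate 5 it was 1.89 (adjusted p = 0.011). The antisense gene Gm10873, on the opposite strand of the same locus, had 0.23 to 1.41 TPM over all 10 libraries. The reads were aligned in an orientation mode, but strand use in counting is not given in the sources used here, so whether reads of such a pair were told apart is not known.

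Cftr, the chloride channel, had 31.7, 39.5, 26.7, 40.2 and 29.6 TPM in WT replicates 1 to 5. It had 21.6, 18.05, 22.1, 20.2 and 21.5 TPM in RhoB-/- replicates 1 to 5. All 5 RhoB-/- libraries lay below all 5 WT libraries, within a narrow band (20.7 ± 1.63 TPM against 33.5 ± 6.04 TPM, SD, n = 5 each). Cftr fell by 0.66 on the log2 scale (SE 0.13, adjusted p = 0.00432), a difference of -0.53 relative to the median gene. Without the library labelled RhoB-/- replicate 5 the difference was -0.67 (adjusted p = 0.0102). At its locus the antisense gene Gm15592 had 0.21 to 1.09 TPM and the pseudogene Gm15595 0.0 to 0.86 TPM.

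On GRCm38 the genes lie at chr12:31390871-31473917 (Slc26a3), chr13:74121457-74169442 (Slc9a3), chr11:84957786-84966044 (Car4), chr14:56365068-56388550 (Atp12a) and chr6:18170687-18322768 (Cftr), all on the plus strand of the GENCODE annotation. Car1, at chr3:14766216-14808368 on the minus strand, and Car2, at chr3:14886273-14900770 on the plus strand, lie near each other with Car3 between them, and of this pair Car2 fell while Car1 did not pass.

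In WT the order of mean levels was Car1, Car2, Car4, Slc26a3, Slc9a3, Cftr and Atp12a. Each neighbour pair kept this order in all 5 WT libraries except Slc9a3 and Cftr, which kept it in 3 of 5, and the ranges of Cftr and Atp12a also overlapped. In RhoB-/- the order was Car1, Car4, Car2, Slc26a3, Slc9a3, Atp12a and Cftr. There Car4 was above Car2 in 4 of 5 libraries and Slc26a3 above Slc9a3 in 3 of 5, while Atp12a was above Cftr in 5 of 5. In RhoB-/- the ranges of Car4 and Car2 overlapped, as did those of Slc26a3 and Slc9a3. The TPM of Slc9a3 divided by that of Slc26a3 in the same library, had a median of 0.25 in WT (0.142 to 0.362) and of 0.784 in RhoB-/- (0.595 to 1.28). The ratio of Car4 to Car2 had a median of 0.474 in WT (0.28 to 0.563) and of 1.49 in RhoB-/- (0.927 to 2.03). Both ratios were chosen after the values were seen.

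**Figure D2:**
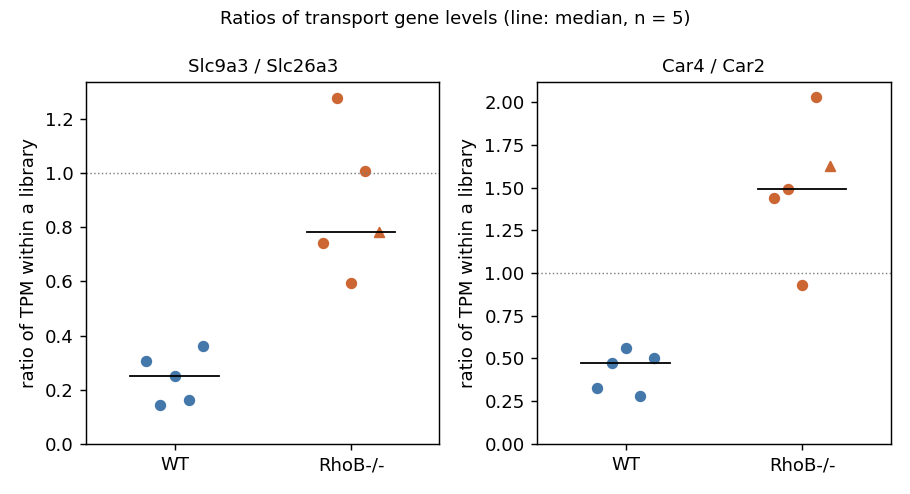
Ratio of TPM within a library (vertical axes, from 0) for Slc9a3 over Slc26a3 and for Car4 over Car2, with 1 point per library, the median as a line, the library labelled RhoB-/- replicate 5 as a triangle and a dotted line at equal levels. The 5 RhoB-/- libraries lie above the 5 WT libraries in both panels, and Slc9a3 exceeds Slc26a3 in 2 of them.

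Likeness of pattern was measured between libraries of one genotype, as Pearson's r of log2(TPM + 1) over the 10 libraries after the mean of each genotype was subtracted, among 7011 genes with a mean of at least 10 TPM. The libraries share their normalization and their cell makeup. The genes named are also the top of 7011 values of r over only 10 libraries, and high r can arise from that choice alone. So r is a description, and the likeness of any named gene was not tested. The most alike genes were Clec2h (r = 0.95), Clcn2 (r = 0.937) and Rab3gap2 (r = 0.929) for Slc26a3, and Ccdc120 (r = 0.897), Gm10800 (r = 0.874) and Dpep1 (r = 0.861) for Slc9a3. For the carbonic anhydrases they were Oma1 (r = 0.976), Etfa (r = 0.972) and Hsd3b3 (r = 0.964) with Car1, Gas6 (r = 0.968), Casc3 (r = 0.96) and Bckdha (r = 0.96) with Car2, and Selenop (r = 0.934) and Tmem37 (r = 0.918) with Car4. For Atp12a they were Gk (r = 0.96), Trak1 (r = 0.941) and Cpd (r = 0.939), and for Cftr Smarcc1 (r = 0.972), Larp1 (r = 0.971) and Tyk2 (r = 0.969). Among the 7 genes themselves, r over the 10 libraries ran from -0.69 for Slc9a3 with Cftr to 0.727 for Car2 with Cftr, and was 0.111 for Slc9a3 with Slc26a3. The r of 9 of the 21 pairs differed in sign between WT libraries alone and RhoB-/- libraries alone. Among them were Slc9a3 with Slc26a3 (-0.304 and 0.436), Slc9a3 with Atp12a (-0.564 and 0.928) and Car2 with Car4 (0.423 and -0.856). Each of these r values rests on 5 libraries, and unrelated genes would also often differ in sign. A difference in r between the genotypes was not tested.

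The wider transport lists held 106 other genes, of which 69 were tested. Of these, 7 were higher and 13 lower in RhoB-/-, and their median log2 difference was -0.12 beside -0.13 for all tested genes. Without WT replicate 2, or without WT replicate 4, the lower count was 7. After recentring the higher count was 12, and without the mitochondrial genes the lower count was 23 of 72 tested. In the main fit 29.0% of the 69 passed, beside 21.2% of all tested genes (7.73% higher and 13.5% lower). The counts of each list below are to be read beside these shares of all tested genes. No list was tested as a whole.

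**Figure D3:**
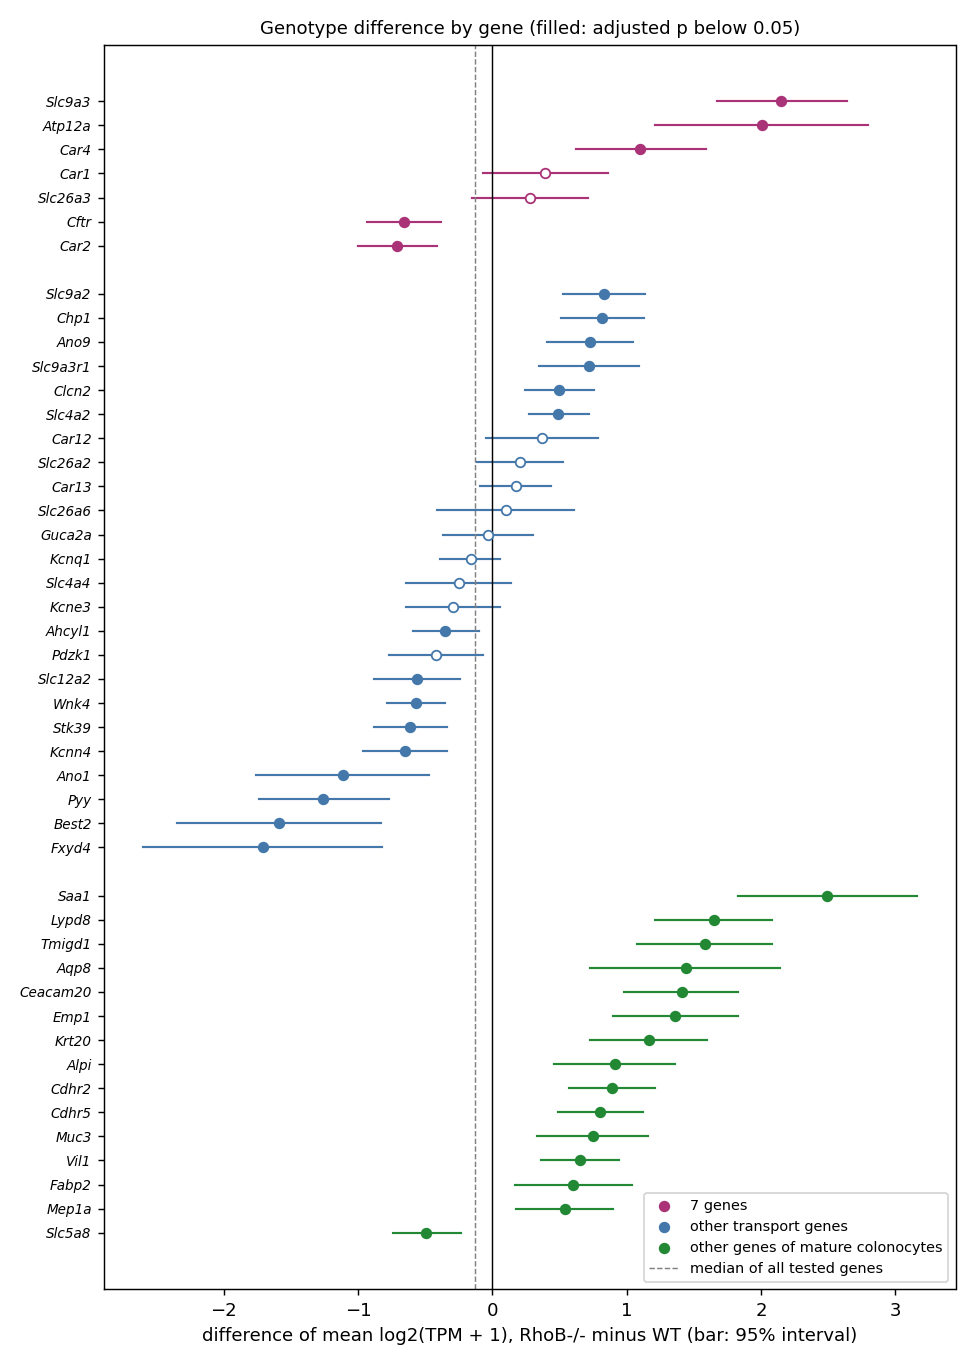
Difference of mean log2(TPM + 1), RhoB-/- minus WT (horizontal axis), with its 95% interval, for the 7 genes, the named transport genes and the named genes of mature colonocytes, filled where the adjusted p was below 0.05, with the median of all tested genes as a dashed line. Slc9a3 (2.15) and Atp12a (2.01) lie far to the right, Slc12a2, Kcnn4, Wnk4 and Stk39 lie to the left, and 14 of the 15 colonocyte genes drawn lie to the right.

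Other exchangers moved in part with Slc9a3. Slc9a2, a second apical sodium and proton exchanger, rose from 63.2 ± 8.91 to 114 ± 20.6 TPM (SD, n = 5 each; log2 difference 0.83, adjusted p = 0.00204), and was the only 1 of 5 tested genes of its list to pass. Slc4a2, the basolateral chloride and bicarbonate exchanger, rose from 94.9 ± 6.21 to 135 ± 15.6 TPM (SD, n = 5 each; log2 difference 0.49, adjusted p = 0.00694), likewise the only 1 of 5. Slc26a2, a sulfate transporter, had a mean of 108 TPM in WT and 127 TPM in RhoB-/- (adjusted p = 0.318), and Slc26a6, an anion exchanger better known from the small intestine, was near the filter at 1.12 and 1.28 TPM (adjusted p = 0.789). The sodium bicarbonate cotransporter Slc4a4 had 18.7 TPM in WT and 15.2 TPM in RhoB-/- (adjusted p = 0.33), and neither of the 2 tested cotransporters passed.

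Of 11 tested scaffold and cofactor genes, 2 were higher and 3 lower, and 1 to 4 were lower with 1 library left out. Slc9a3r1, which anchors Slc9a3 and Cftr in the brush border, rose from 186 ± 31.3 to 310.4 ± 74.9 TPM (SD, n = 5 each; log2 difference 0.72, adjusted p = 0.0124), and Chp1, a cofactor of sodium and proton exchangers, from 188 ± 25.5 to 334 ± 61.7 TPM (SD, n = 5 each; log2 difference 0.82, adjusted p = 0.00246). Ahcyl1, known as a regulator of Cftr and of bicarbonate transport, fell by 0.35 on the log2 scale (adjusted p = 0.0457), a call kept by 2 of 10 fits that each left out 1 library and lost with no filter on low TPM (adjusted p = 0.0651), with the replicate block (adjusted p = 0.117) and in limma without the trend (adjusted p = 0.0541). Tesc, another cofactor of the exchangers, fell by 0.89 (adjusted p = 0.00508), a call kept by 10 of 10 such fits, and the scaffold Slc9a3r2 by 0.74 (adjusted p = 0.0274), kept by 5 of 10. Pdzk1, another scaffold, had 1.88 TPM in WT and 1.14 TPM in RhoB-/- (adjusted p = 0.0843), and passed as lower without the mitochondrial genes (adjusted p = 0.0268) and in limma without the trend (adjusted p = 0.0373). None of the 5 tested carbonic anhydrases beyond the 3 above passed, among them Car12 with 37.0 and 49.0 TPM (adjusted p = 0.185) and Car13 with 20.9 and 23.9 TPM (adjusted p = 0.319), although Car13 passed after recentring (adjusted p = 0.0177).

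Of 6 tested pump genes, 1 was higher and 1 lower, and 2 of 7 tested were lower without RhoB-/- replicate 3. Fxyd5 was the higher gene, with 1.55 TPM in WT and 4.27 TPM in RhoB-/- (log2 difference 1.02, adjusted p = 0.01). Fxyd4, which regulates sodium transport, fell by 1.71 on the log2 scale (adjusted p = 0.0133). It had 18.6 ± 14.3 TPM in WT and 4.30 ± 2.08 TPM in RhoB-/- (SD, n = 5 each), with overlapping groups. Chloride channels split, with 2 of 10 tested genes higher and 3 lower, and 1 lower without WT replicate 2 or WT replicate 4. Clcn2 rose from 99.2 to 141 TPM (log2 difference 0.50, adjusted p = 0.0125) and Ano9 from 49.4 to 83.3 TPM (log2 difference 0.73, adjusted p = 0.00602). Best2, a bicarbonate channel of goblet cells, fell by 1.59 on the log2 scale (adjusted p = 0.00885), from 14.9 ± 5.86 to 4.54 ± 3.07 TPM (SD, n = 5 each). Ano1, a calcium-activated chloride channel, fell by 1.11 on the log2 scale (adjusted p = 0.022), a call lost without WT replicate 2 (adjusted p = 0.0515) or WT replicate 4 (adjusted p = 0.0558), or with no filter on low TPM (adjusted p = 0.0644). Ano6 fell by 0.54 on the log2 scale (adjusted p = 0.0246), a call lost without either of these WT libraries or RhoB-/- replicate 1 (adjusted p up to 0.0685).

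Of 8 tested genes for basolateral chloride entry and potassium recycling, none was higher and 2 were lower. Slc12a2, which loads chloride for secretion, fell by 0.56 on the log2 scale (adjusted p = 0.0204), from 48.6 ± 9.20 to 32.4 ± 4.99 TPM (SD, n = 5 each). That call was lost without the library labelled RhoB-/- replicate 5 (adjusted p = 0.0514), and also without WT replicate 2 (adjusted p = 0.0518) or WT replicate 4 (adjusted p = 0.0569). The potassium channel Kcnn4 fell by 0.65 on the log2 scale (adjusted p = 0.00915). Kcnq1, at 28.6 and 25.3 TPM (adjusted p = 0.272), and Kcne3, at 126 and 104 TPM (adjusted p = 0.208), which together form another potassium channel, did not pass. Kcnq1 passed without the mitochondrial genes (adjusted p = 0.0331) and Kcne3 without RhoB-/- replicate 3 (adjusted p = 0.0288). Among 17 tested regulators of secretion, none was higher and 4 were lower. Wnk4 and Stk39, kinases that control chloride cotransport, fell by 0.57 (adjusted p = 0.00258) and by 0.61 (adjusted p = 0.00635) on the log2 scale. Pyy, a hormone of enteroendocrine cells that lowers secretion, fell by 1.26 on the log2 scale (adjusted p = 0.00266). Guca2a, the guanylin gene, had 2478 ± 466 TPM in WT and 2407 ± 338 TPM in RhoB-/- (SD, n = 5 each; adjusted p = 0.89).

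Genes of mature surface colonocytes were mostly higher. Of 19 tested, 14 were higher and 1 lower, with a median log2 difference of 0.80. The water channel Aqp8 rose from 177 ± 69.5 to 479.8 ± 213 TPM (SD, n = 5 each; adjusted p = 0.0103), and the surface keratin Krt20 from 720.2 ± 129 to 1652 ± 485 TPM (SD, n = 5 each; adjusted p = 0.00224). Saa1 had the largest log2 difference of the list, 2.49, followed by Lypd8 (1.65), Tmigd1 (1.58), Aqp8 (1.44), Ceacam20 (1.41), Emp1 (1.36), Krt20 (1.17), Alpi (0.91), Cdhr2 (0.89), Cdhr5 (0.80), Muc3 (0.75) and Vil1 (0.65). Fabp2 (0.60, adjusted p = 0.049) and Mep1a (0.54, adjusted p = 0.0369) passed narrowly, and both lost the call without the library labelled RhoB-/- replicate 5 (adjusted p = 0.112 and 0.0788). They kept it in 2 and 4 of 10 fits that each left out 1 library, and lost it with no filter on low TPM (adjusted p = 0.119 and 0.0779), Fabp2 also in limma without the trend (adjusted p = 0.052) and Mep1a with the replicate block (adjusted p = 0.0632). Muc3 lost its call after quantile normalization (adjusted p = 0.0512) and with no filter on low TPM (adjusted p = 0.0775). Slc5a8, a butyrate transporter, fell by 0.49 on the log2 scale (adjusted p = 0.0132). The summed level of the 19 genes was 10052 to 15533 TPM in WT and 25631 to 39622 TPM in RhoB-/-. Much of that sum and of its rise was Lypd8, the most abundant of the list. Lypd8 alone had 5179 ± 1315 TPM in WT and 15941 ± 2804 TPM in RhoB-/- (SD, n = 5 each). The part of mature colonocytes in the results for the 7 genes was not tested.

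**Figure D4:**
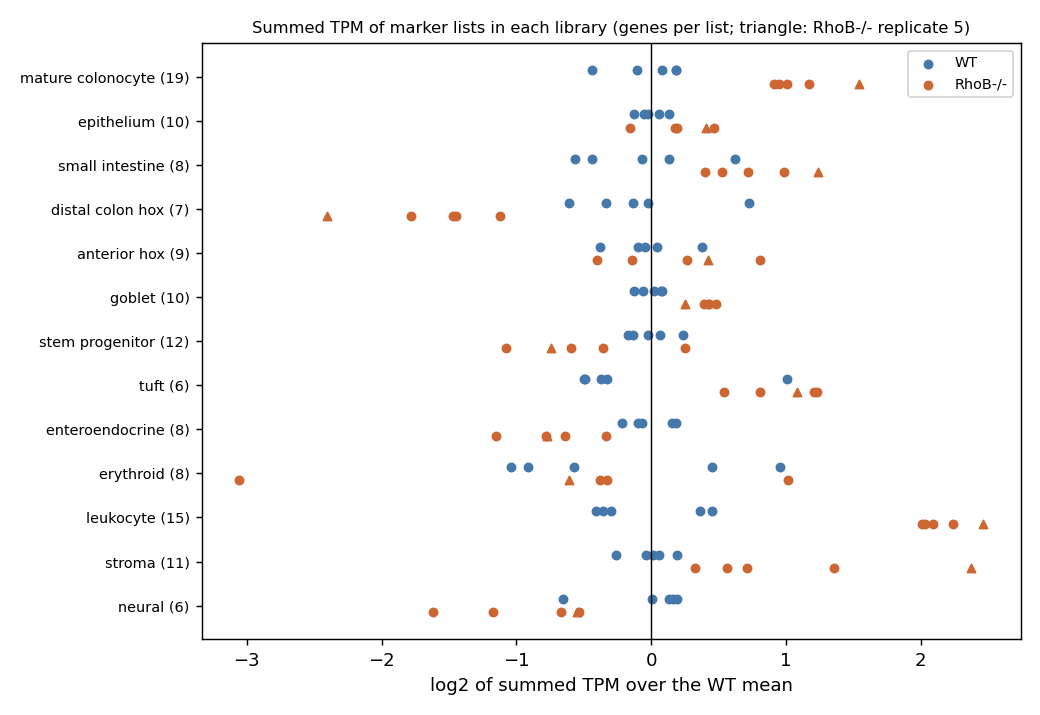
Log2 of the summed TPM of each marker list over its WT mean (horizontal axis), with 1 point per library and the library labelled RhoB-/- replicate 5 as a triangle. Leukocyte, mature colonocyte, goblet and stromal sums are higher in every RhoB-/- library than in any WT library, and the distal colon Hox and enteroendocrine sums are lower. A sum follows its most abundant genes, and much of the mature colonocyte sum is Lypd8.

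Markers of the labelled tissue were present. The 10 epithelial genes were all tested, 3 were higher and none lower, and Krt8, the most abundant, had 4308 TPM in WT and 5328 TPM in RhoB-/-; their sum was 12596 to 15029 TPM in WT and 12344 to 18927 TPM in RhoB-/-. With 1 library left out 1 to 5 were higher, 5 without RhoB-/- replicate 2, and without the library labelled RhoB-/- replicate 5 only 1, since Cdx2 (adjusted p = 0.0987) and Cldn7 (adjusted p = 0.0816) lost their calls. The small intestine enzymes and carriers Sis, Lct, Apoa1 and Apoa4 had means of 1.15 TPM or less in either group, while 2 of 3 tested genes of that list were higher, with Rbp2 most abundant at 34.0 and 61.6 TPM and sums of 44.5 to 101 TPM in WT and 86.6 to 155 TPM in RhoB-/-. The call of Rbp2 was lost without the library labelled RhoB-/- replicate 5 (adjusted p = 0.103) and kept in 3 of 10 fits that each left out 1 library. Hox genes of the distal colon moved with genotype. Hoxb13, the most abundant, fell by 1.76 on the log2 scale (adjusted p = 0.00113), 2 of 3 tested genes were lower, and the sum was 70.4 to 178 TPM in WT and 20.3 to 49.3 TPM in RhoB-/-. Of 7 tested Hox genes with a more anterior limit 1 was higher, and Hoxb6, the most abundant, had 26.1 and 30.7 TPM, with sums of 49.2 to 83.3 TPM and 48.6 to 112 TPM; with 1 library left out 0 to 2 were higher, none without WT replicate 2 or the library labelled RhoB-/- replicate 5 and 2 without WT replicate 4. Which stretch of colon each library came from is not given in the labels, and its part in the results was not tested.

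Other cell types of the epithelium were counted in the same way. Of 10 tested goblet genes 4 were higher and 1 lower, with sums of 13936 to 16057 TPM in WT and 18078 to 21287 TPM in RhoB-/- that did not overlap, and Muc2, the most abundant, had 4981 and 4294 TPM (adjusted p = 0.474). With 1 library left out 3 to 4 were higher and 1 to 2 lower, 2 without RhoB-/- replicate 3 or 4, and Spink4 lost its call without the library labelled RhoB-/- replicate 5 (adjusted p = 0.0543) and kept it in 4 of 10 fits. Of 11 tested stem and progenitor genes 3 were lower, with sums of 305 to 405 TPM and 163 to 410 TPM, and Pcna, the most abundant, had 101 and 82.3 TPM. With 1 library left out 1 to 8 of them were lower, 8 without RhoB-/- replicate 3 and 1 without RhoB-/- replicate 2, WT replicate 1, 2 or 4, or the library labelled RhoB-/- replicate 5, without which Mki67 (adjusted p = 0.0721) and Mcm5 (adjusted p = 0.1) lost their calls. Of 8 tested enteroendocrine genes 4 were lower, Pyy being the most abundant, with sums of 469 to 617 TPM and 245 to 431 TPM, and 3 to 6 were lower with 1 library left out. Of 3 tested tuft genes 2 were higher, with Trpm5 at 2.20 and 4.47 TPM and sums of 4.41 to 12.5 TPM and 9.06 to 14.6 TPM. With 1 library left out 0 to 3 were higher, none without WT replicate 2 or 5, and without the library labelled RhoB-/- replicate 5 only 1. The part of these cell types in the results for the 7 genes was not tested.

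Leukocyte genes were low but moved with genotype. Of 8 tested 6 were higher and none lower, and the sum of the 15 genes was 11.2 to 20.4 TPM in WT and 60.0 to 82.2 TPM in RhoB-/-. Gzma, the most abundant, had 4.23 ± 1.87 and 24.0 ± 2.25 TPM (SD, n = 5 each; adjusted p = 1.81e-05). S100a8, below the filter, was listed at 0 in every WT library and in RhoB-/- replicates 2 and 3. It did not pass (p = 0.167, two-sided exact permutation test). Of 3 tested stromal genes 2 were higher, with Vim most abundant at 5.85 and 10.9 TPM and sums of 8.93 to 12.2 TPM and 13.4 to 55.3 TPM, and the call of Vim was kept in 1 of 10 fits that each left out 1 library. Of 5 tested erythroid genes, listed because red cells also carry Car1 and Car2, none passed. Their sum ranged from 226 to 904 TPM in WT and from 56.0 to 942 TPM in RhoB-/-, with Hba-a2 most abundant at 208 and 179.6 TPM. The only tested neural gene, Snap25, was lower at 2.10 and 1.02 TPM, with sums of 1.82 to 3.27 TPM and 0.93 to 1.97 TPM, a call kept in 3 of 10 fits that each left out 1 library and lost without the library labelled RhoB-/- replicate 5 (adjusted p = 0.0616). Of 38 marker genes below the filter, 5 were higher (Cd3d, Cd79a, Col1a1, Itgax and Jchain) and 3 lower (Cyp3a25 and Hoxd11 among them) at an unadjusted p below 0.05 in a two-sided exact permutation test over the 252 labellings of the libraries. The part of these cells in the results was not tested. Mitochondrially encoded genes took 17.5% to 26.5% of TPM in WT and 10.3% to 22.4% in RhoB-/-.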

How the data were processed

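RNA of colon IECs was compared between 5 WT and 5 RhoB-/- libraries, grouped by genotype from the sample labels. The authors trimmed the reads with SeqPrep and Sickle, and HISAT2, StringTie, RSEM and edgeR are named in the submitters' processing notes with the build GRCm38.p6. The deposited values are TPM from RSEM, which the authors gave per gene, and they summed to 971419 to 993229 in a library. HISAT2 was run in an orientation mode that is not described further, and versions and the strand setting of counting are not given in the sources used here. TPM is relative to each library and keeps no depth, so the counting error of a value is unknown.

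Differences were fitted with limma 3.58.1 in R 4.3.3 (lmFit, then eBayes allowing an intensity trend). Its input was log2(TPM + 1) of the 12870 genes whose mean TPM reached 1. Tests were two-sided, with Benjamini-Hochberg adjustment over all of them, and called at an adjusted p below 0.05. This scale understates the change of low genes. The fit was tested on simulated data. Exact permutation tests served for marker genes under the filter. The members and the gene lists were chosen with earlier results of these data known. Genes were named by rule: the 7 genes, transport and colonocyte genes that were called with a mean TPM of at least 5, a fixed set named whether called or not, the 3 genes most like each of the 7, Rhob, and the most abundant gene of each marker list. Other genes were named after their values were seen. A few genes of the rule are not reported here. Vil1, Alpi, Pyy and Slc4a1 each stand in 2 lists. Alternatives were the study's thresholds, a pseudocount of 0.1, no filter or a filter at 5 TPM, the replicate number as a block, 3 other scalings, limma without the trend and leaving out each library. Promoters came from RefSeq and gene positions from GENCODE.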

Additional observations from a re-analysis of the deposited data

Results flagged for a closer look

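In 6 of 94 groups of 5 libraries tested, over the 7 genes, the named transport and colonocyte genes and Rhob, a single library stood apart from its group, and about 4.7 such groups arise by chance. The library labelled RhoB-/- replicate 5 held 111 TPM of Rhob, against 0.57 TPM or less in the other 4. The same library was highest of its group for Mep1a (212 TPM), Muc3 (4154 TPM) and Slc9a2 (149.8 TPM). WT replicate 2 was highest of its group for Slc5a8 (155 TPM), and RhoB-/- replicate 3 for Kcne3 (146 TPM). None of the 7 transport genes had such a library in either group.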

How the results depend on the processing

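For the 7 genes, all 133 values under the alternatives kept their direction and their side of the threshold. For 39 other named genes, 685 of 739 values did, 44 lost a call, 5 gained one and 5 changed sign, and 23 genes were the same in all. The sign changes were in Guca2a (0.08 after recentring, and -0.09 to 0.07 with a library left out) and Slc26a6 (-0.01 to 0.24 with a library left out), neither called in any fit. At the study's thresholds Ahcyl1, Clcn2, Mep1a, Slc12a2, Slc4a2, Slc5a8 and Wnk4 were not called, since their fold change on the log2(TPM + 1) scale was below 1.5. With the replicate number as a block, 836 genes were higher and 1059 lower, 3 and 2 of the 7 genes and 7 and 12 of the other transport genes. The numbers do not pair the libraries, since same-numbered libraries correlated at 0.0241, 0.0164, 0.072, -0.0874 and -0.00245 after group means were removed, and only replicate 3 correlated best with its own number.

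The count of lower genes was 1072 at the study's thresholds, 1104 with a filter at 5 TPM and 3729 without mitochondrial genes. The count of higher genes was 2010 after recentring and 1587 after quantile normalization. With 1 library left out, 719 to 1154 genes were higher and 853 to 2868 lower. The lower count was 950 without WT replicate 2, 853 without WT replicate 4, 985, 2868 and 1116 without RhoB-/- replicate 1, 3 and 5. Of the other transport genes, 12 were higher after recentring, 23 lower without mitochondrial genes, and 7 to 9 were higher and 7 to 15 lower with 1 library left out. The cause was not tested. Shares of carbonic anhydrase TPM moved by less than their SD without the library labelled RhoB-/- replicate 5.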
